A study of Mus musculus with 2 samples.

Results

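The genes described here are the chemokines and lymphotoxins that organise lymphoid follicles, with their receptors. They comprise the ligands Lta and Ltb and their receptor Ltbr, the chemokines Cxcl13, Ccl19 and Ccl21a, and the chemokine receptors Cxcr5 and Ccr7. The 8 genes were taken by symbol from the 50768 genes of both single-cell tables, and 6 of them had at least 1 UMI (unique molecular identifier, 1 counted transcript) in the NOD cells and 7 in the CD1 cells. The study profiled submandibular salivary glands, with the adjacent sublingual glands, of female mice aged 20 weeks. One library came from NOD/ShiltJ mice, an inbred strain that develops lymphocytic infiltration of the salivary glands and autoimmune diabetes, and the other from CD1 mice, an outbred control; neither group was treated. Each library was a pool of mice (4 per strain in the methods, 3 in the sample labels), dissociated, depleted of EpCAM+ epithelial and Ter119+ erythroid cells, and freed of dead cells. With 1 library per strain, strain, pool and library cannot be told apart and no test between strains was possible. All 95% intervals given here cover counting error only.

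Lymphotoxin alpha and lymphotoxin beta form a membrane-bound heterotrimer on lymphocytes that signals through the lymphotoxin beta receptor on stromal, endothelial and myeloid cells, in part through the non-canonical NF-kB pathway. In lymphoid organs this signal maintains the stromal cells that secrete CXCL13, CCL19 and CCL21. CXCL13 draws CXCR5+ B cells and follicular helper T (Tfh) cells into follicles, whereas CCL19 and CCL21 draw CCR7+ naive T cells and mature dendritic cells into the T zone. The same genes are known from the lymphocyte foci of inflamed salivary glands.

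Ltb and Lta lie close together on mouse chromosome 17. Their promoters are shown because both ligands had most of their UMIs in lymphocytes and because NF-kB is the pathway that the receptor uses. Each runs from 250 bases before to 50 bases after the transcription start (RefSeq, build GRCm38.p6), Ltb at chr17:35194257-35194556 on the plus strand and Lta at chr17:35205302-35205601 on the minus strand. Capitals mark a match to the kB-type motif GGGNNNTTCC, searched on both strands.
Ltb: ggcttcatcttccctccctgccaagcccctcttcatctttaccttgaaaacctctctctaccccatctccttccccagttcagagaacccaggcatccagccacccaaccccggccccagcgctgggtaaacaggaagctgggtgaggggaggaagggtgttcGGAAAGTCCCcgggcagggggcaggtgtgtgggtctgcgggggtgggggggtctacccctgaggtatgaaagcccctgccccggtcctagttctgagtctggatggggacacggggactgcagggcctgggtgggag
Lta: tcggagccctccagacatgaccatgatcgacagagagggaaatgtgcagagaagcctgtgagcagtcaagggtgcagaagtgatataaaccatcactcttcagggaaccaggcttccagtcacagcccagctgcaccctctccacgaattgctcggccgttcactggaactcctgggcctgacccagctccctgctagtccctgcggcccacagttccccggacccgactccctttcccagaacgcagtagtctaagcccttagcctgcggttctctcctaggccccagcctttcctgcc
The match in the Ltb promoter, GGAAAGTCCC, reads as the motif on the opposite strand and lies 87 to 78 bases before the start. The motif was found in 1825 of 32851 promoters of the same length (5.56%). Of the 6 genes of the set that the promoter table lists (Ltb, Lta, Ltbr, Cxcl13, Ccl19 and Ccl21a), only Ltb had it.

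Barcodes with at least 500 UMIs and 300 detected genes were kept, 6500 in NOD and 7014 in CD1, with medians of 5719.5 and 6495 UMIs. Each was given a lineage, written T-like and so on, by its UMIs of fixed marker genes. T-like barcodes numbered 2106 (32.4%) in NOD and 100 (1.43%) in CD1, and B-like barcodes 831 (12.8%) and 8 (0.114%). NK-like barcodes numbered 494 and 355, macrophage-like 720 and 2978, endothelial-like 1072 and 2903, and dendritic-like 30 and 2. A further 406 NOD and 32 CD1 barcodes carried both T and NK markers and were kept apart as T and NK mixed. The labels call the suspensions stromal-enriched, yet fibroblast-like barcodes numbered 57 and 16, so that few of the cells in which CXCL13, CCL19 and CCL21 are usually made were sampled. Unassigned barcodes (406 and 321) had medians of 19.1% and 11.2% mitochondrial UMIs, and 18 kept barcode sequences occurred in both libraries.

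Levels are UMIs of a gene per 1000000 UMIs of the class (CPM). Empty droplets (10 to 100 UMIs), which sample free RNA, held 745 CPM of Ltb in NOD and 115 CPM in CD1. Over all kept barcodes, 5 of the 7 detected genes were at least 2-fold higher in NOD (Cxcl13, Cxcr5, Ccr7, Ltb and Lta), against 15.9% of the 19827 genes with at least 20 UMIs. Their median log2 ratio (NOD over CD1) was 2.01, beside 0.10 over all those genes. Ltb, the abundant ligand subunit, stood at 496 CPM in NOD (21540 UMIs) and 123 CPM in CD1 (6077 UMIs), a log2 ratio of 2.01 (1.97 to 2.05). Lta, which also forms a secreted homotrimer, stood at 12.6 CPM (549 UMIs) and 3.58 CPM (177 UMIs), a log2 ratio of 1.82 (1.57 to 2.07). Both ligands were thus higher in the NOD library as a whole. Ltbr, their receptor, went the other way, with 13.1 CPM (569 UMIs) in NOD and 32.8 CPM (1622 UMIs) in CD1, a log2 ratio of −1.33 (−1.47 to −1.19).

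These sums mixed the level within a cell with the number of cells of each lineage. When the CD1 levels of 8 lineage classes were weighted by the NOD lineage mix, the log2 ratio of Ltb moved from 2.01 to −0.051 and that of Lta from 1.82 to −1.29. The ratio of Ltbr moved from −1.33 to −0.22, and that of Ccr7, the T zone receptor, from 3.44 to 0.66. The ratio of Cxcr5, the follicle receptor, moved from 4.83 to 2.79, and that of Cxcl13, its ligand, from 5.94 to 7.99. B-like barcodes, 831 in NOD and 8 in CD1, were not a class of their own. They were pooled with the other lineages under 20 barcodes in either library, so their number was not equalised. B-like barcodes held 63.2% of the NOD Cxcr5 UMIs, so the Cxcr5 ratio still mixed level and number. With both libraries at the CD1 mix instead, the ratios were 0.15 for Ltb, −0.57 for Lta, 0.056 for Ltbr, 1.02 for Ccr7, 2.95 for Cxcr5 and 7.69 for Cxcl13. The number of the genes at least 2-fold higher in NOD went from 5 to 2 at the NOD mix and 3 at the CD1 mix.

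**Figure D1:**
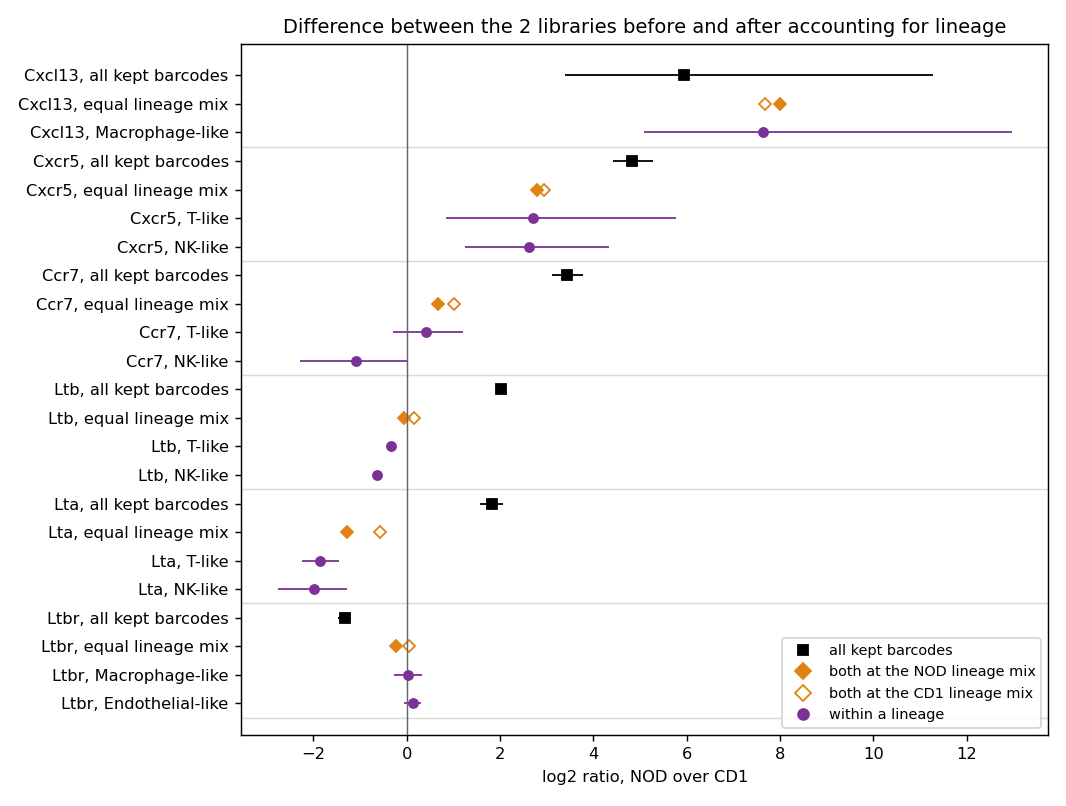
Log2 ratios of NOD over CD1 for 6 genes over all kept barcodes (squares), with both libraries at the same lineage mix (diamonds) and within lineages (circles); bars are 95% counting intervals, and 0 means equal levels. At the NOD mix Ltb moved from 2.01 to −0.051, Cxcr5 from 4.83 to 2.79 and Cxcl13 from 5.94 to 7.99. B-like barcodes were pooled with other small lineages in the mix.

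Lymphotoxin ligands were lymphocyte transcripts in both libraries, but in different lymphocytes. In NOD, T-like barcodes held 46.5% of the Ltb UMIs, B-like barcodes 17.0%, T and NK mixed barcodes 14.6% and NK-like barcodes 11.9%. In CD1, NK-like barcodes held 61.2% and T-like barcodes 12%. Lta divided likewise, with 55.9% in T-like and 3.83% in NK-like barcodes of NOD, against 36.2% and 44.1% in CD1. NK-like barcodes were thus the main holders of both ligands in the control gland, and T-like barcodes in the NOD gland.

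**Figure D2:**
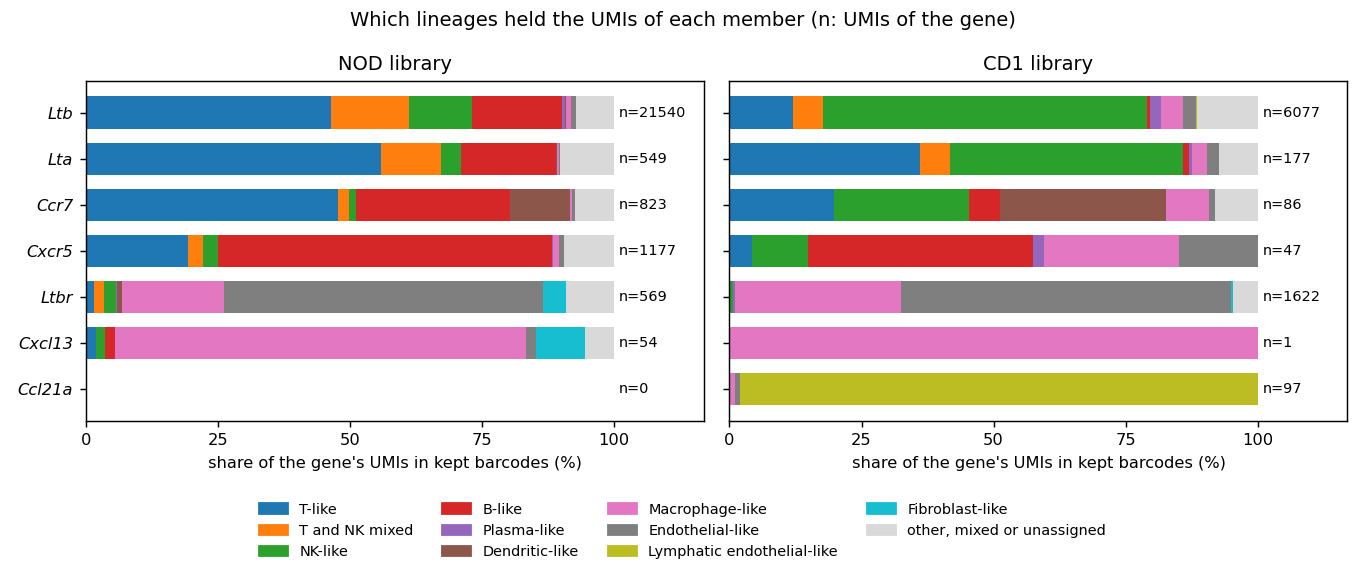
Share (percent) of each gene's UMIs in kept barcodes that each lineage held, NOD left and CD1 right, with the gene's UMI total at the end of its bar. NK-like barcodes held 61.2% of the Ltb UMIs in CD1 and 11.9% in NOD, and 1 lymphatic endothelial-like barcode held 95 of the 97 Ccl21a UMIs of CD1.

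Ltb was close to level across NOD lymphocytes, at 778 CPM (753 to 804) in B-like, 722 (697 to 748) in T and NK mixed, 719 (705 to 733) in T-like and 589 (566 to 612) in NK-like barcodes. The mixed and T-like intervals overlapped, and the B-like and NK-like intervals lay above and below them. Among the other lineages with at least 20 barcodes, plasma-like barcodes followed at 162 CPM, dendritic-like at 79.0, macrophage-like at 43.0, endothelial-like at 33.7 and fibroblast-like at 16.9. The 5 neutrophil-like barcodes, too few to rank, held 15 Ltb UMIs (964 CPM, 540 to 1590). At an equal depth of 1000 UMIs, 45.4% of the T-like, 45.1% of the B-like and 38.9% of the NK-like NOD barcodes had an Ltb UMI, against 3.04% of the endothelial-like barcodes, which should lack it. Before thinning these shares were 85.5%, 80.1%, 79.8% and 8.86%, at median depths of 6133, 5683, 8140 and 5126 UMIs. The drop from T-like, B-like and NK-like barcodes to macrophage-like, endothelial-like and fibroblast-like ones was therefore far wider than the differences among those lymphocyte classes.

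Within T-like and NK-like barcodes, Ltb was lower in NOD. T-like barcodes stood at 719 CPM in NOD (10013 UMIs) and 915 CPM in CD1 (731 UMIs), a log2 ratio of −0.35 (−0.45 to −0.24), with medians of 3 and 5 UMIs per barcode. NK-like barcodes stood at 589 CPM (2564 UMIs) and 914 CPM (3721 UMIs), a log2 ratio of −0.64 (−0.71 to −0.56), with medians of 4 and 7 UMIs. The NK-like classes were led by different genes, Klra13-ps, Klra4 and Gzma in NOD and Xcl1, Ncr1 and Clnk in CD1. In NOD, Klra5, Xcl1 and Trdc led the T and NK mixed barcodes. The part of this difference in make-up in the NK-like ratios, here and for the other genes, was not tested. T and NK mixed barcodes stood at 722 and 814 CPM, a log2 ratio of −0.17 (−0.33 to −0.01). T-like barcodes were also divided by Cd4 and Cd8, the co-receptors of helper and cytotoxic T cells. Those with Cd8a or Cd8b1 and no Cd4 (535 and 20 barcodes) stood at 817 and 1428 CPM, a log2 ratio of −0.81 (−0.99 to −0.62). Those with Cd4 and no Cd8 (945 and 35 barcodes) stood at 672 and 781 CPM, a log2 ratio of −0.22 (−0.42 to −0.01). Without the highest CD1 barcode of each subset, the ratios were −0.70 (−0.89 to −0.50) with Cd8 and −0.11 (−0.32 to 0.10) with Cd4. Counting error covers the latter.

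Lta was also lower within T-like and NK-like barcodes of NOD. In T and NK mixed barcodes it stood at 14.2 and 23.3 CPM, a log2 ratio of −0.72 (−1.69 to 0.41), which counting error covers. T-like barcodes stood at 22.1 CPM (307 UMIs) in NOD and 80.1 CPM (64 UMIs) in CD1, a log2 ratio of −1.86 (−2.25 to −1.45). Of the 64 CD1 UMIs, 28 lay in 1 Cd4+ barcode; without it the CD1 level was 45.5 CPM and the log2 ratio −1.04 (−1.55 to −0.50). NK-like barcodes stood at 4.82 CPM (21 UMIs) and 19.2 CPM (78 UMIs), a log2 ratio of −1.99 (−2.76 to −1.28), and −1.81 without the highest CD1 barcode. A stricter lineage rule gave −0.84 in T-like barcodes, and cluster-based lineages gave −1.22 in NK-like ones. T-like barcodes with Cd8 had the lowest ratio, with 9.90 CPM in NOD (38 UMIs) against 106 CPM in CD1 (20 UMIs in 9 of 20 barcodes), a log2 ratio of −3.42 (−4.24 to −2.56), and −2.97 without the highest CD1 barcode. In those with Cd4 the levels were 30.9 and 140 CPM, but without the barcode of 28 UMIs the CD1 level was 38.0 CPM and the log2 ratio −0.30 (−1.21 to 0.78). NOD T-like barcodes with Foxp3, the regulatory T cell factor, stood at 27.3 CPM for Lta and 833 CPM for Ltb, and those with Trdc, a gamma-delta receptor gene, at 24.8 and 732 CPM. T-like barcodes with none of these genes stood at 9.59 CPM of Lta in NOD (16 UMIs) and 8.84 CPM in CD1 (2 UMIs), a log2 ratio of 0.12 (−1.97 to 3.28).

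The counts of the set past 2-fold were read beside those of all genes of the lineage. In T-like barcodes 1 of the 4 genes with at least 20 UMIs was at least 2-fold lower in NOD (Lta), against 5.12% of all genes, and 1 at least 2-fold higher (Cxcr5), against 15.0%. In NK-like barcodes 2 of 5 were at least 2-fold lower (Lta and Ccr7), against 4.77%, and 1 at least 2-fold higher (Cxcr5), against 5.21%. The medians of the set were 0.03 in T-like and −0.64 in NK-like barcodes, beside 0.14 and 0.03 over all genes.

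Macrophage-like and endothelial-like barcodes of NOD also held more Ltb, at 43.0 against 12.5 CPM (log2 1.79) and 33.7 against 7.77 CPM (log2 2.12). Cxcr5 did likewise, at 3.03 against 0.593 CPM and 1.80 against 0.355 CPM. T-cell marker RNA moved with them: the summed level of the 7 T markers was 107 CPM in NOD and 9.14 CPM in CD1 macrophage-like barcodes, and 102 and 5.33 CPM in endothelial-like ones. The 6 B markers stood at 40.6 and 5.04 CPM in macrophage-like and at 14.4 and 0.914 CPM in endothelial-like barcodes, with all 7 T and all 6 B markers detected in the NOD barcodes of both lineages. NOD empty droplets held more Ltb than CD1 ones (745 and 115 CPM). The part of free lymphocyte RNA in these values was not tested. In macrophage-like barcodes 3 of 4 genes of the set were at least 2-fold higher in NOD (Cxcl13, Cxcr5 and Ltb), against 8.21% of all genes, and in endothelial-like barcodes 1 of 2 (Ltb), against 7.88%; the medians were 2.07 and 1.12, beside 0.07 in both.

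**Figure D3:**
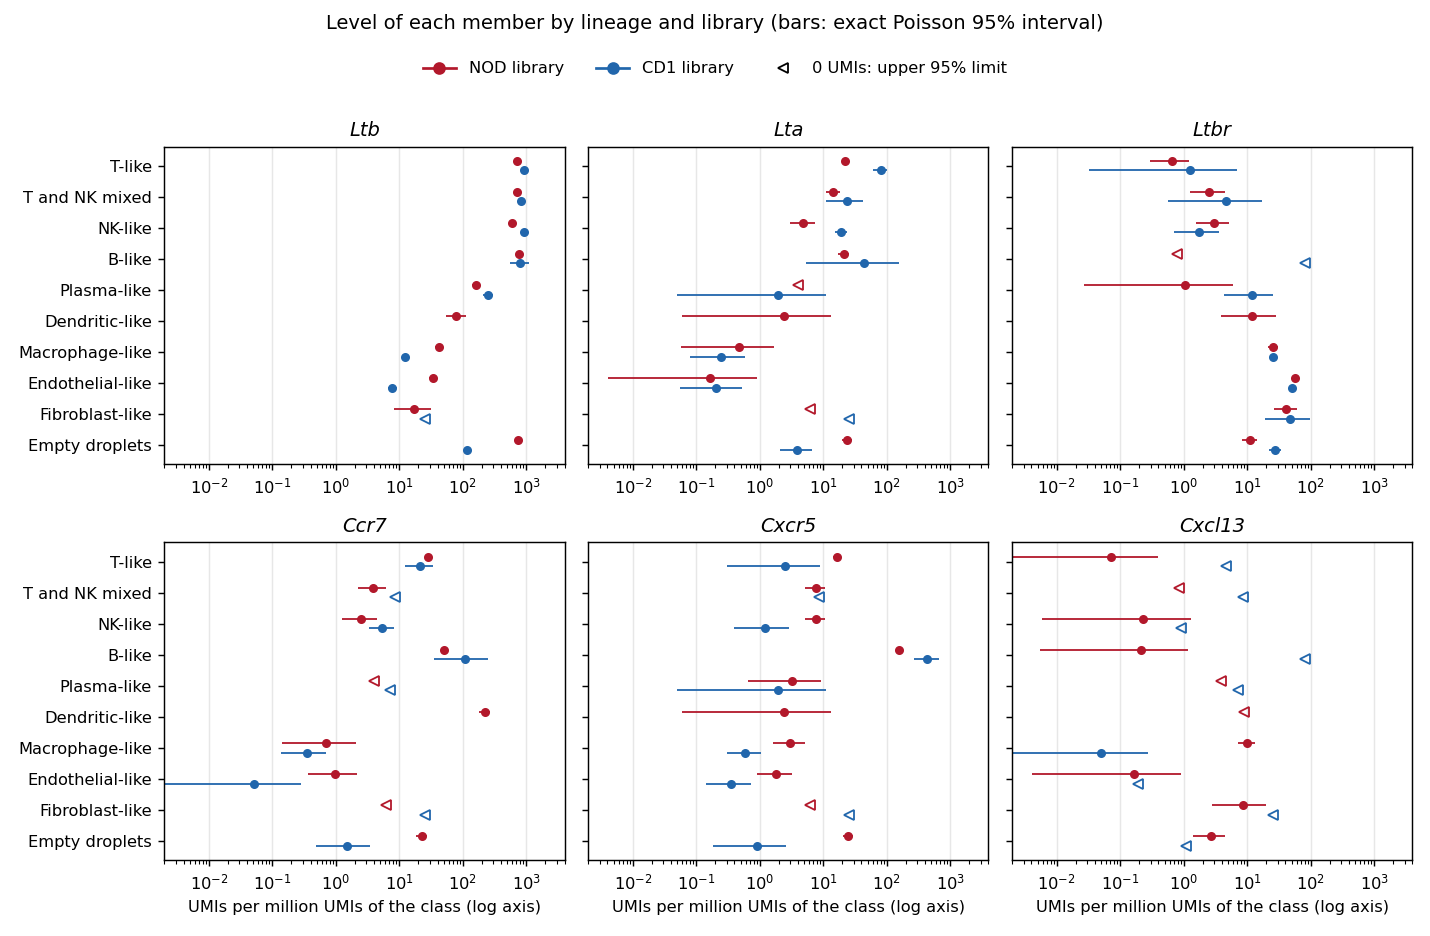
Level of 6 genes (CPM of the class, log axis) by lineage in NOD (red) and CD1 (blue). Bars are exact Poisson 95% intervals, and open triangles mark the upper limit where no UMI was found. The 2 dendritic-like barcodes of CD1 are left out. Ltb sits between 589 and 778 in NOD lymphocytes and at 33.7 in endothelial-like barcodes, while Ltbr has the opposite order.

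Ltbr was a transcript of endothelial-like, fibroblast-like and macrophage-like barcodes. In endothelial-like and macrophage-like ones its main log2 ratios stayed within counting error. Endothelial-like barcodes stood at 56.2 CPM (344 UMIs) in NOD and 51.5 CPM (1014 UMIs) in CD1, a log2 ratio of 0.13 (−0.05 to 0.31). The ratio was 0.20 (0.02 to 0.38) without Scrublet doublets and 0.20 (0.007 to 0.38) under the stricter lineage rule, intervals that left out 0. Macrophage-like barcodes stood at 25.7 CPM (110 UMIs) and 25.2 CPM (510 UMIs), a log2 ratio of 0.03 (−0.28 to 0.33). Fibroblast-like barcodes of NOD stood at 40.6 CPM (26.0 to 60.4), an interval that overlapped those of endothelial-like (50.5 to 62.5) and macrophage-like barcodes (21.1 to 31.0). T-like barcodes of NOD stood at 0.646 CPM and the 831 B-like barcodes had no Ltbr UMI. The ligands and the receptor were therefore found in lineages that hardly overlapped: in NOD, endothelial-like and macrophage-like barcodes held 60.5% and 19.3% of the Ltbr UMIs and 0.956% and 0.854% of the Ltb UMIs.

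Cxcl13, the follicle chemokine, was rare and was found almost wholly in NOD. Its 54 UMIs lay in 28 NOD barcodes (1.24 CPM), and CD1 had 1 UMI (0.0202 CPM), a log2 ratio of 5.94 (3.40 to 11.27). Of the 54 UMIs, 42 lay in 17 of the 720 macrophage-like barcodes (2.36%; 9.80 CPM) and 5 in 5 of the 57 fibroblast-like barcodes (8.46 CPM, 2.75 to 19.7), whereas T-like, B-like, NK-like and endothelial-like barcodes had 1 UMI each. The 1 CD1 UMI was also in a macrophage-like barcode, which gives a log2 ratio of 7.63 (5.08 to 12.97) within that lineage. Among the 17 barcodes, 9 had 1 UMI and 8 had 2 or more. The highest had 15 Cxcl13 UMIs of 1800, with 22.3% mitochondrial UMIs and 17 UMIs of C1qa, a complement gene of tissue macrophages. Without it the macrophage-like level was 6.31 CPM and the log2 ratio 7.0 (4.39 to 12.35). Empty droplets of NOD held 13 Cxcl13 UMIs (2.65 CPM) and those of CD1 none, and the barcodes with Cxcl13 were deeper than the other macrophage-like ones (median 5815 and 3424 UMIs).

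Chemokines and interferon-response genes were among those that led the 17 macrophage-like barcodes with Cxcl13, by fold over the other macrophage-like barcodes. Ccl5, a T-cell chemokine, stood at 2463 CPM with Cxcl13 and 231 CPM without. Cxcl9, an interferon-gamma-induced chemokine, stood at 1178 and 308 CPM, Ccl2, a monocyte chemokine, at 884 and 272 CPM, and Ifit3 and Irf7, interferon-response genes, at 326 and 60.9 CPM and at 276 and 56.5 CPM. Vcam1, an adhesion molecule, stood at 244 and 40.5 CPM. Sash1, Slco3a1, Smc4, Ptprm and Tubb4b were also among the leading genes. These genes were ranked on the same 17 barcodes, so the values describe them and are no test.

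Ccl19 had no UMI in any barcode of either library. A count of 0 allows up to 0.0568 CPM in NOD and 0.0531 CPM in CD1 (3 UMIs over all barcodes). Ccl21a, the chemokine of lymphatic vessels and high endothelial venules, had 97 UMIs in CD1 and none in NOD (up to 0.0691 CPM over kept barcodes). Of the 97, 95 lay in 1 barcode of 16925 UMIs with 33 UMIs each of Prox1 and Reln, 18 of Mmrn1 and 3 of Flt4, which are lymphatic endothelial genes. No NOD barcode was lymphatic endothelial-like, so the difference in Ccl21a rested on 1 barcode. Both genes have near-identical copies, and reads that fit more than 1 gene may not have been counted. In GENCODE vM21 transcripts (build GRCm38), 87.3% of the 90-base windows in the last 500 bases of Ccl19-201 also occur in another gene, as do 63.7% of those of Ccl21a-201, and none of those of the other 6 genes of the set. Of the copies listed by symbol, Ccl21b, Ccl21d, Ccl21e and Ccl21f had no UMI, and of the Ccl19 pseudogenes only Ccl19-ps1 (2 and 2 UMIs) and Ccl19-ps2 (2 in NOD and 4 in CD1) had any. The zeros of Ccl19 and Ccl21a are therefore uncertain.

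Cxcr5, the receptor of CXCL13, marked B-like barcodes. In NOD, B-like barcodes held 744 of its 1177 UMIs (63.2%) at 158 CPM (147 to 169), followed by T-like barcodes at 16.4 CPM (14.3 to 18.6), NK-like at 7.58 CPM, T and NK mixed at 7.55 CPM, macrophage-like at 3.03 CPM and endothelial-like at 1.80 CPM. The intervals of NK-like (5.21 to 10.6) and T and NK mixed barcodes (5.20 to 10.6) overlapped. Those of T-like and B-like barcodes stood apart from each other and from the other classes just listed. Barcodes with another mix of lineage markers stood at 36.7 CPM (29.7 to 44.9). Unassigned barcodes stood at 15.8 CPM (9.19 to 25.3), an interval that overlapped that of T-like barcodes. A Cxcr5 UMI was found in 48.3% of the B-like and 7.55% of the T-like barcodes, and after thinning to 1000 UMIs in 13.3% and 1.20%, against 0.203% of the endothelial-like. The 8 B-like barcodes of CD1, too few for a comparison, held 20 of the 47 Cxcr5 UMIs of that library. Under a stricter lineage rule the B-like share in NOD was 32.4% in place of 63.2%.

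In T-like barcodes Cxcr5 stood at 16.4 CPM in NOD (228 UMIs) and 2.50 CPM in CD1 (2 UMIs), a log2 ratio of 2.71 (0.84 to 5.76). NK-like barcodes stood at 7.58 CPM (33 UMIs) and 1.23 CPM (5 UMIs), a log2 ratio of 2.62 (1.26 to 4.34). The summed level of the 6 B markers was 13.8 CPM in NOD and 0.737 CPM in CD1 NK-like barcodes. In T-like barcodes it was 19.3 and 2.50 CPM. The part of free B-cell RNA in the NK-like Cxcr5 ratio was not tested. In T-like barcodes with Cd4 the levels were 21.6 CPM (149 UMIs) and 7.37 CPM (2 UMIs), a log2 ratio of 1.55 (−0.33 to 4.61). In those with Cd8 they were 11.2 CPM (43 UMIs) in NOD and no UMI in CD1, and the 115 NOD barcodes with Trdc had none. NOD empty droplets held 24.3 CPM of Cxcr5, above the T-like level. With the free RNA share estimated from salivary secretory genes (15.9% in NOD, 1.08% in CD1) subtracted, the log2 ratio in T-like barcodes was 2.33. With the lowest share that markers of other lineages gave (1.71% in NOD, 0.962% in CD1), the ratio was 2.68.

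Ccr7, the T zone receptor, was spread over T-like, B-like and dendritic-like barcodes. In NOD, T-like barcodes held 47.8% of the 823 UMIs (28.2 CPM, 25.5 to 31.2), B-like barcodes 29.2% (50.9 CPM, 44.6 to 57.7) and the 30 dendritic-like barcodes 11.3% (223 CPM, 180 to 273), and these 3 intervals did not overlap. Within the dendritic-like barcodes, 8 carried at least 2 of the mature dendritic markers Fscn1, Ccl22, Il4i1 and Cacnb3. All 8 had Ccr7, with 89 UMIs (1173 CPM), whereas the other 22 had 4 UMIs (11.7 CPM). CD1 had 1 such mature barcode, with 27 of the 86 Ccr7 UMIs of that library. Without it the log2 ratio over all kept barcodes was 3.99 in place of 3.44 (3.12 to 3.78). The Scrublet setting removed every dendritic-like barcode of CD1 as a doublet, this one included.

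T-like barcodes stood at 28.2 CPM of Ccr7 in NOD (393 UMIs) and 21.3 CPM in CD1 (17 UMIs), a log2 ratio of 0.41 (−0.29 to 1.20), which counting error covers. Without the highest CD1 barcode, of 5 UMIs, the ratio was 0.90 (0.08 to 1.86), an interval that left out 0. T-like barcodes with Cd4 stood at 37.4 CPM (258 UMIs) and 11.1 CPM (3 UMIs), a log2 ratio of 1.76 (0.20 to 4.05). NK-like barcodes went the other way, with 2.53 CPM (11 UMIs) in NOD and 5.41 CPM (22 UMIs) in CD1, a log2 ratio of −1.10 (−2.29 to 0.01).

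T-like barcodes of NOD with a Cxcr5 UMI more often carried Tfh genes than those without. At 5000 UMIs per barcode, a depth chosen after the data were seen, which left out 718 shallower barcodes, 95 had Cxcr5 and 1293 did not. Sh2d1a, the adaptor that Tfh cells need to help B cells, was found in 70.5% (60.3 to 79.4) and 39.6% (36.9 to 42.3). Pdcd1, which encodes PD-1, was found in 36.8% (27.2 to 47.4) and 15.0% (13.1 to 17.1), Tox2 in 22.1% and 6.57%, Bcl6, the Tfh master regulator, in 28.4% and 17.0%. For Icos, Maf and the Tfh cytokine Il21 the intervals overlapped (54.7% and 44.5%, 40% and 31.7%, and 8.42% and 3.02%). The B markers Cd79a and Ms4a1 were found in 0 and 1 of the 95, and in 1.01% of the others each. Both are among the markers that set the lineage, so T-like barcodes hold few of them by construction. These shares therefore cannot tell whether B-cell RNA was present. At 1000 UMIs, 25 barcodes had Cxcr5, and Sh2d1a was found in 20.0% of them and 11.1% of the others, with overlapping intervals.

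Ccr7 went with genes of naive and recirculating T cells in T-like barcodes of NOD. Of these genes, Tcf7 was also more frequent with Cxcr5 than without it (67.4%, 57.0 to 76.6, and 51.3%, 48.5 to 54.0). Among 140 barcodes with Ccr7 and 1248 without, Tcf7 was found in 79.3% and 49.4%, Lef1 in 60.7% and 41.5%, the egress receptor S1pr1 in 52.1% and 27.6% and Klf2, a factor of quiescent T cells, in 50.7% and 28.1%. Pdcd1 (21.4% and 15.9%), Tox2 (8.57% and 7.53%) and Bcl6 (17.9% and 17.8%) had overlapping intervals, and Il21 was found in 9.29% and 2.72%. Cd4 was found in 65.0% and 43.1% and Cd8a in 14.3% and 28.0%. Lta, like Ccr7, went with Il21 (13.4% of 97 barcodes with Lta, 2.63% of 1291 without) and Cd4 (59.8% and 44.2%), and less often with Cd8a (13.4% and 27.7%). It also went with Sh2d1a (57.7% and 40.5%) and, unlike Ccr7, less often with S1pr1 (16.5% and 31.1%).

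**Figure D4:**
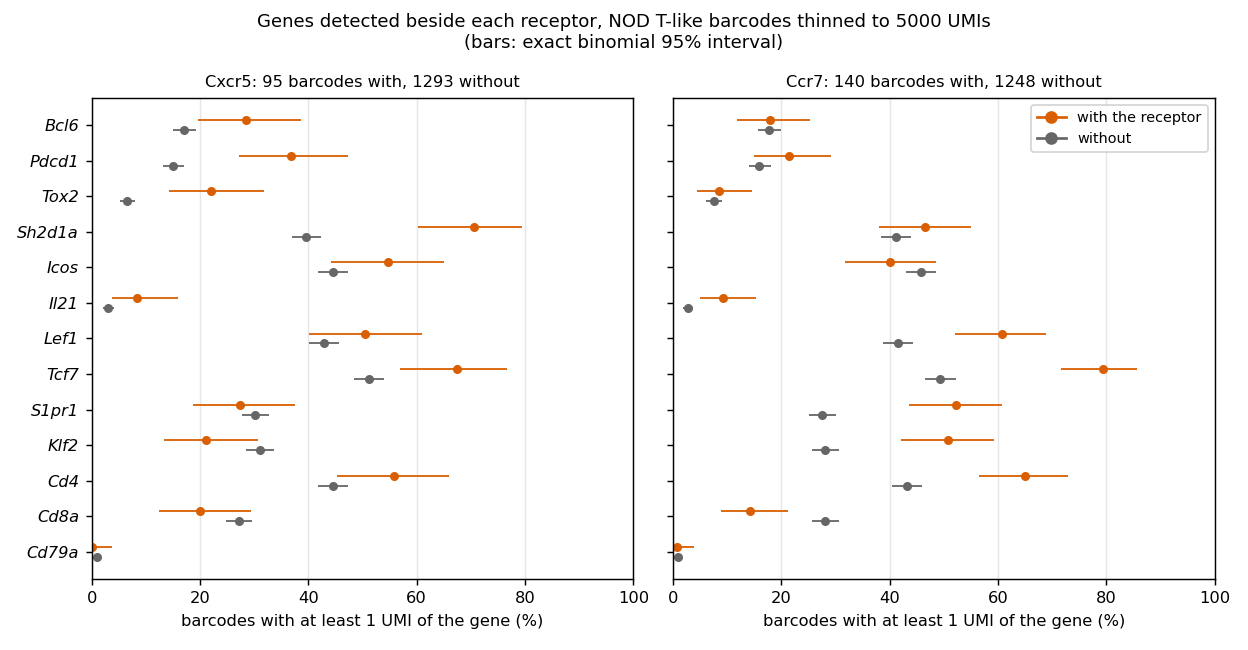
Share of NOD T-like barcodes, each thinned to 5000 UMIs, with at least 1 UMI of each gene, for barcodes with (orange) and without (grey) Cxcr5 (left) or Ccr7 (right); bars are exact binomial 95% intervals. Sh2d1a, Pdcd1 and Tox2 separate on the left (70.5% and 39.6% for Sh2d1a), and Lef1, Tcf7 and S1pr1 on the right (79.3% and 49.4% for Tcf7). Tcf7 also separates on the left (67.4% and 51.3%). Cd79a was a lineage marker, so its low share was set in part by the lineage rule.

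B-like barcodes of NOD with and without Cxcr5 were not separated by these genes. At 5000 UMIs, 251 had it and 241 did not, and Cr2, the complement receptor of mature B cells, was found in 70.9% and 72.2%, Fcer2a in 69.3% and 65.6% and Ccr7 in 21.1% and 24.5%, all with overlapping intervals. Of the 6 germinal centre genes, 4 had at least 20 UMIs in B-like barcodes. The 831 B-like barcodes held 31 UMIs of Rgs13 and 1 of Mef2b. Bcl6, on the same list, was found at 5000 UMIs in 23.9% of those with Cxcr5 and 27.0% of those without. Cr2 and Fcer2a, which also mark follicular dendritic cells, had 2175 and 1751 UMIs in B-like barcodes. Over all kept barcodes, 5 of the 6 germinal centre genes had at least 20 UMIs. Of these, 1 was at least 2-fold higher in NOD, Rgs13 (44 UMIs, and none in CD1), beside 15.9% of all genes. The list median was 0.38 beside 0.10 over all genes. Of the 4 follicular dendritic genes, Cr2 (55.6 and 0.749 CPM) and Fcer2a (45.1 and 0.870 CPM) were at least 2-fold higher in NOD and Sox9 (2.09 and 4.55 CPM) lower, with a list median of 3.02.

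Other genes of the pathway, given here in the order NOD and then CD1, were read in the same lineages. Of the 7 TNF family neighbours, 0 were at least 2-fold higher and 1 lower in NOD T-like barcodes, beside 15.0% and 5.12% of all genes. The lower gene there was Tnfrsf11a, which encodes RANK (3.23 and 12.5 CPM). Tnf, the close relative of the lymphotoxins, stood at 141 and 125 CPM there (log2 0.18, −0.11 to 0.48) and at 72.5 and 84.5 CPM in NK-like barcodes (log2 −0.22, −0.45 to 0.00), unlike Lta. In NK-like barcodes Tnfsf11, which encodes RANKL, stood at 9.87 and 27.5 CPM. Of the 8 non-canonical NF-kB genes, which act downstream of the receptor, 1 was at least 2-fold higher in NOD T-like barcodes, beside 15.0% of all genes. It was Map3k14, the NF-kB-inducing kinase (87.9 and 41.3 CPM). In macrophage-like and endothelial-like barcodes none of the 8 was 2-fold apart, where 8.21% and 7.88% of all genes were at least 2-fold higher. The list medians were 0.36 and 0.27, beside 0.07 over all genes. Relb stood at 39.7 and 39.5 CPM and at 34.7 and 29.7 CPM. Fibroblast-like barcodes, which also had Ltbr, were not compared.

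Genes of lymphocyte entry differed in endothelial-like barcodes. Of the 8 genes of high endothelial venules and vessel adhesion, 5 had at least 20 UMIs. Of these, 3 were at least 2-fold higher in NOD, beside 7.88% of all genes, and the list median was 1.27 beside 0.07 over all genes. Ackr1, a chemokine receptor of venules, stood at 8.01 and 2.49 CPM, Selp, which encodes P-selectin, at 12.8 and 5.28 CPM, and Vcam1 at 14.1 and 4.88 CPM. By clusters, an endothelial cluster with Selp among its leading genes held 53 of 1077 NOD and 24 of 2916 CD1 endothelial barcodes. The part of this difference in make-up in these levels was not tested. Glycam1 and Madcam1, which mark high endothelial venules, had no UMI in these barcodes, and Chst4 had 3 in NOD and 0 in CD1. Vcam1 also stood at 48.1 and 2.77 CPM in macrophage-like barcodes.

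Genes of the oxysterol axis, which guides B and T cells through the receptor GPR183, differed in several lineages. Gpr183 was lower in NOD in T-like (101 and 302 CPM), NK-like (27.1 and 116 CPM) and macrophage-like barcodes (325 and 552 CPM). Cyp7b1, an enzyme that makes its ligand, was higher in endothelial-like barcodes (63.6 and 18.6 CPM), and Ch25h, the other enzyme, lower in macrophage-like ones (126 and 191 CPM). Of the 11 genes of that list, 7 had at least 20 UMIs in T-like barcodes. There 1 was at least 2-fold higher and 1 lower (Ackr4 and Gpr183), beside 15.0% and 5.12% of all genes. In NK-like ones 2 of 6 were at least 2-fold higher, S1pr1 among them, and 2 lower (Gpr183 and Cxcl12), beside 5.21% and 4.77% of all genes.

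In T-like barcodes the Tfh and naive lists had medians above that of all genes. Of all genes there, 15.0% were at least 2-fold higher in NOD and 5.12% lower. None of the 5 naive genes was 2-fold apart, but the list median was 0.68 beside 0.14 over all genes, with Lef1 at 271 and 169 CPM and Tcf7 at 242 and 151 CPM. Of the 7 Tfh genes, Il21 (181 UMIs in NOD, none in the 100 CD1 barcodes) and Sh2d1a (145 and 57.5 CPM) were at least 2-fold higher, and the list median was 0.80. The lymphoid tissue inducer list had 3 genes with at least 20 UMIs, none 2-fold apart, among them Il23r at 81.2 and 98.8 CPM and Il1r1 at 66.7 and 76.3 CPM. These lists rest on the 100 T-like barcodes of CD1.

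The genes whose pattern over 19 lineage-by-library classes was most like each gene of the set, by Pearson r of log2(CPM + 5), are given as a description; classes of 1 library share depth and free RNA. For Ltb they were Pde7a (r = 0.98), Jakmip1 (0.98) and Tbc1d10c (0.97), for Ltbr Gm53541 (0.96), Tnfaip2 (0.96) and Cebpd (0.95), and for Lta Carmil2 (0.92). For Cxcr5 they were Gm34596 (0.95), Gm15634 (0.95) and Zbtb32 (0.93), and for Ccr7 Dpp4 (0.89). Cxcl13 was closest to Ccl8 (0.99), a monocyte chemokine, then to Gbgt1 (0.91) and C5ar2 (0.91). Classes under 20 barcodes were left out, and with them the barcode that held 95 of the Ccl21a UMIs. The closest gene to Ccl21a, Gm10825 (0.73), therefore rested on 1 UMI each in macrophage-like and endothelial-like barcodes of CD1, and is not informative.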

How the data were processed

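Single-cell RNA was measured in 2 10x Genomics libraries, 1 per strain. Per the labels, the deposited values are raw UMI counts per gene and barcode, made by the authors with Cell Ranger 8.0.0 on build GRCm39; the notes also name Seurat 5.0.1 and R 4.3.1. The deposited tables were unfiltered, with 52790319 UMIs over 1298073 barcodes in NOD and 56483149 over 1331542 in CD1. Labels and methods differ on the dissociation enzymes and the number of mice per pool.

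Barcodes with at least 500 UMIs and 300 genes were kept (43439635 and 49420810 UMIs). A barcode took the lineage with most of its marker UMIs (15 lists, 87 markers), given at least 2 UMIs from at least 2 markers and 67% of all marker UMIs. These limits were set after seeing the data. In NOD and CD1, 42 and 38 assigned barcodes lay at the UMI minimum, and 532 and 213 had a share near the 67% limit. The genes and lists were chosen with earlier results of these data known. UMIs were summed per lineage and library, since cells are not replicates. Intervals at 95% came from the Poisson distribution for CPM and, for shares and for log2 ratios given the summed count, from the binomial; they cover counting error only. Lineages under 20 barcodes were not compared. A count of 0 was read as up to 3 UMIs. For shares of barcodes, each barcode was thinned to 1000 UMIs. No test was run between strains. Calculations used Python 3.11.15, numpy 2.4.6, scipy 1.17.1 and pandas 2.3.3, with scanpy 1.11.5 for the alternatives, and the interval code was tested on simulated data. Doublets were not removed in the values reported; Scrublet was an alternative, as were other filters, scalings, lineage rules, clusters and subtraction of free RNA.

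The named genes were the 8 genes of the set, 9 lists of pathway genes (57 genes, with values for those with at least 20 UMIs), near copies of Ccl19 and Ccl21a, and the 3 genes closest in pattern to each gene with at least 50 UMIs. Genes that led the Cxcl13 barcodes and the T-like subsets were chosen after their values were seen. Promoters came from RefSeq (GRCm38.p6), another build than that of the counts. A few genes of the lists are not reported here by name, though they count in the list totals.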

Additional observations from a re-analysis of the deposited data

Results flagged for a closer look

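Barcodes below the minimum, which the comparisons did not use, also held Ltb, Cxcr5, Ccr7, Lta and Cxcl13 at levels above those of the control library. In NOD they held 591 CPM of Ltb, against 86.8 CPM in CD1, and 22.5 CPM of Cxcr5, against 0.566 CPM. Ccr7 stood at 19.2 and 1.27 CPM, Lta at 17.2 and 3.68 CPM, and Cxcl13 at 2.14 CPM (20 UMIs) in NOD with no UMI in CD1. Ccl21a went the other way, with 2.83 CPM (20 UMIs) in CD1 and none in NOD, and so did Ltbr, with 9.84 CPM in NOD and 22.9 CPM in CD1.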

How the results depend on the processing

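No paired analysis was possible because each strain had 1 library. Of the values that answer a comparison, 97 recomputed under an alternative stayed within their counting interval (counts, within the limit set for them), and 15 moved. Where that interval held 0, a change of direction within it was not counted as a move. Ltbr in macrophage-like barcodes, for example, went from 0.03 to −0.11 by clusters. Reweighting to 1 lineage mix left 2 (NOD mix) and 3 (CD1 mix) of the genes at least 2-fold higher in NOD in place of 5. It turned the direction over all barcodes for Lta (−1.29 and −0.57), Ltb (−0.051 at the NOD mix) and Ltbr (0.056 at the CD1 mix). By construction, reweighting removes the difference in numbers between the classes used. It does not do so within the pooled class that holds the B-like barcodes. Ltb in T-like barcodes (log2 −0.35) was −0.60 with free RNA subtracted, and in NK-like barcodes (−0.64) it was −0.72 with free RNA subtracted, −0.74 under the stricter lineage rule, −0.40 with lineages by clusters and −0.47 with T and NK mixed barcodes counted as NK. With the lowest free RNA estimate, Ltb was −0.37 in T-like and −0.66 in NK-like barcodes. Lta in T-like barcodes (−1.86) was −0.84 under the stricter rule and −1.04 without the highest CD1 barcode, and in NK-like barcodes (−1.99) it was −1.22 by clusters and −1.04 with mixed barcodes counted as NK. The T-like share of NOD Ltb UMIs (46.5%) was 49.3% without Scrublet doublets, 45.7% by clusters, 31.4% under the stricter rule and 61.1% with mixed barcodes counted as T. The cause of the moves under other lineage rules was not tested. The secretory genes gave a free RNA share above all UMIs in NOD macrophage-like barcodes, so no value with that subtraction is given there. Values for dendritic-like and lymphatic endothelial-like barcodes could not be recomputed by clusters or the stricter rule. The 100 T-like and 8 B-like barcodes of CD1 limit every comparison of lymphocytes. The mixed-barcode, lowest free RNA and left-out barcode settings were chosen after seeing the data.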
